A study of Homo sapiens with 8 samples.

Results

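The genes described here are 10 members of the Notch pathway that were followed by name in a table of 30386 genes: the receptors NOTCH1, NOTCH2, NOTCH3 and NOTCH4, the ligands DLL1, DLL4, JAG1 and JAG2, and the target genes HEY1 and HEY2. All 10 were listed in the table, and all 10 passed the filter on low counts. The cells were grown from WTC-TJP1, an established line of human induced pluripotent stem cells, and were differentiated either to endothelial cells (iEC, 4 samples) or to retinal endothelial cells (iREC, 4 samples). In each group the samples are lettered C, D, E and F and are at passage 1. Every sample came from this single line, so no value here measures a difference between donors, and the labels give no treatment that separates the groups other than the differentiation itself. The series calls the differentiations matched, but the labels do not say that a letter pairs samples or marks a separate culture, so the p-values measure the spread between these samples, which may be technical.

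Notch receptors are single-pass membrane proteins that are switched on by ligands on a neighbouring cell. After ligand binding, ADAM proteases and then the gamma-secretase complex cut the receptor, and its intracellular part enters the nucleus, where it joins the DNA-binding protein RBPJ and Mastermind-like coactivators. In endothelium, DLL4 and NOTCH1 restrain sprouting and take part in arterial fate, JAG1 can counter DLL4 where Fringe enzymes glycosylate the receptor, NOTCH4 is the receptor most restricted to endothelium, and NOTCH3 is best known from pericytes and smooth muscle. HEY1 and HEY2 encode transcriptional repressors that are direct Notch targets and are needed together for arterial development.

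Each library held between 13739364 and 16971865 counts. Levels are given in CPM, read counts per 1000000 of a library scaled by the TMM method, and a count of 3 corresponded to 0.178 to 0.215 CPM. All 10 endothelial markers that were checked were counted in every sample. Of 5 pluripotency markers, NANOG, SOX2 and POU5F1 stayed at or under 1.16 CPM, DNMT3B reached at most 37.4 CPM, and LIN28A rose (edgeR) from 8.45 to 32.4 CPM in iEC to 20.5, 147, 53.7 and 482 CPM in iREC (C to F), with an overlap at iREC C; this call was lost in 5 of 15 alternatives (limma-voom, the replicate block, and without iEC D, E or F; adjusted p up to 0.114). Among the neural markers in the table, PAX6 and SOX1 were at 0 in every iEC sample, and NES and TUBB3 were lower in iREC (edgeR). Of 5 blood markers in the table, PTPRC rose (edgeR), from 0 in every iEC sample to between 0.794 and 2.75 CPM, and the other 4 stayed at or under 0.195 CPM. All 15330 tested genes entered the quasi-likelihood test of edgeR, and a gene was called at a Benjamini-Hochberg adjusted p under 0.05.

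The receptor and target genes did not move together. In iREC, NOTCH3 and HEY2 rose and NOTCH4 and JAG2 fell, while NOTCH1, DLL4, JAG1 and HEY1, the most abundant receptor, ligands and target in iREC, were not called. Called members thus numbered 4 of 10, 2 in each direction, against 25.0% of all tested genes (13.2% higher and 11.7% lower). The same 4 genes were those whose groups did not overlap, against 29.1% of all tested genes. The median log2 fold change of the members was -0.024 and that of all tested genes 0.020. The authors' deposited table also lists an adjusted p under 0.05 for these 4 members and for no other member. Those values come from the same counts and are not separate support. In these bulk samples, fewer cells of a type and less RNA per cell cannot be told apart.

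**Figure D1:**
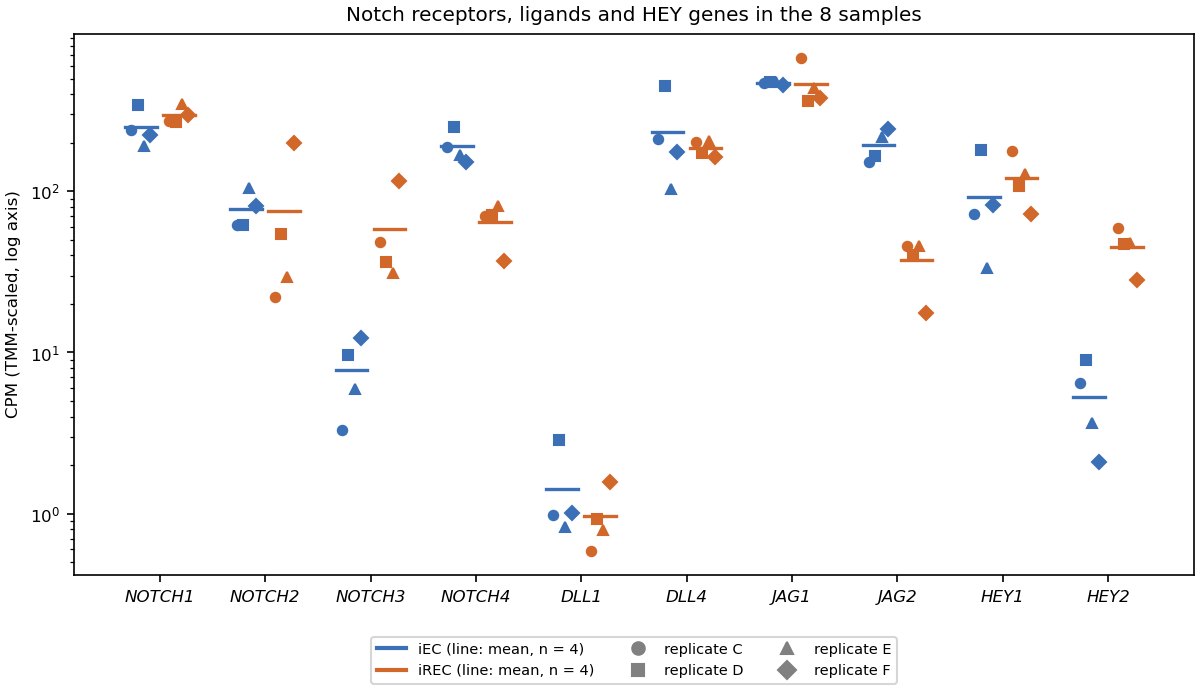
CPM of each of the 10 genes on a log axis, with 1 point per sample (marker shape gives the replicate letter), blue for iEC and orange for iREC, and a line at the mean of 4 samples. NOTCH3 and HEY2 lie higher in every iREC sample than in any iEC sample, and NOTCH4 and JAG2 lie lower.

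Among the receptors, NOTCH3 (ENSG00000074181, chromosome 19, 15159038 to 15200981) changed most. It stood at 3.32, 9.67, 5.92 and 12.2 CPM in iEC (C to F) and at 48.5, 36.3, 31.3 and 116 CPM in iREC (C to F). The lowest iREC sample was above the highest iEC sample, and iREC F was the highest of all. The means were 7.79 ± 3.95 and 58.1 ± 39.5 CPM (SD, n = 4). The log2 fold change was 2.90 ± 0.52 (SE; adjusted p 0.00367 by edgeR), or 7.47-fold. Without iREC F the log2 fold change was 2.31 (edgeR adjusted p 0.0031).

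NOTCH4 (ENSG00000204301, chromosome 6, 32194843 to 32224067) went the other way. It stood at 189, 252, 168 and 153 CPM in iEC (C to F) and at 70.2, 70.9, 80.7 and 37.1 CPM in the same order in iREC. Each iREC sample was below every iEC sample, and iREC F was the lowest of all. The fall from 190 ± 43.6 to 64.7 ± 19.0 CPM (SD, n = 4) gave a log2 fold change of -1.56 ± 0.25 (SE; adjusted p 0.00208 by edgeR). GPSM3, which overlaps NOTCH4 on the same strand, was at 30.1 CPM in iEC and 24.4 CPM in iREC, less than NOTCH4 in each group.

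NOTCH1 (ENSG00000148400, chromosome 9, 136494433 to 136545786), the receptor with the highest CPM and FPKM in both groups, was at 239, 343, 191 and 225 CPM in iEC (C to F) and at 272, 270, 349 and 297 CPM in iREC. The groups overlapped only through iEC D, the highest of the iEC samples. The log2 fold change was 0.25 ± 0.19 (SE; adjusted p 0.354 by edgeR), with a 95% interval from -0.16 to 0.67; without iEC D it was 0.44 with an edgeR adjusted p of 0.0678.

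NOTCH2 (ENSG00000134250, chromosome 1, 119911553 to 120069626) gave no single direction. It was at 61.9, 62.0, 106 and 80.8 CPM in iEC (C to F) and at 22.0, 54.0, 29.3 and 199 CPM in iREC. In iREC C, D and E it was below every iEC sample, and in iREC F it was above all of them. With all samples the log2 fold change was -0.029 ± 0.62 (SE; adjusted p 0.979 by edgeR); without iREC F it was -1.15 and was called (edgeR adjusted p 0.0303). NOTCH2 has near-identical partial copies, so its reads can be split between them. The listed copy, NOTCH2NLA, held at most 16 counts in any sample.

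Within iREC, the summed markers of mural cells (pericytes and smooth muscle) had the sample order of NOTCH3, and those of fibroblasts that of NOTCH2. In iEC the orders differed. There the mural sum was highest in C (236 CPM), where NOTCH3 was lowest. The fibroblast sum was highest in iEC F (298 CPM), while NOTCH2 was highest in iEC E. The 10 mural markers summed to 169 to 236 CPM in iEC and to 867, 775, 428 and 1730 CPM in iREC (C to F). NOTCH3 in iREC followed the same order, E lowest, then D, C and F. Of the 7 mural markers tested, TAGLN, CNN1 and MYH11 rose and RGS5, a pericyte gene, fell (edgeR). DES was below the main filter and was called higher in all 7 alternatives that tested it. KCNJ8 and ABCC9, also below the filter, were called in none of the 2 that tested them. Without iREC F the log2 fold change went from 4.83 to 3.95 for CNN1 and from 2.78 to 1.94 for MYH11, both still called, and the RGS5 call was lost with the replicate block and without iREC D, iREC E or iEC C (adjusted p up to 0.0628). PDGFRB was at 4.71, 27.1, 10.3 and 127 CPM in iREC (C to F), and the pericyte channel gene ABCC9 was at 0 in iREC C, D and E.

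The 6 epithelial markers summed to 391 to 1174 CPM in iEC and to 302, 1117, 422 and 4924 CPM in iREC (C to F). The 6 fibroblast markers summed to 46.0 to 298 CPM in iEC and to 154, 502, 207 and 2871 CPM in iREC (C to F). NOTCH2 had the order of these sums in iREC, C lowest, then E, D and F. LUM was the only fibroblast marker called of 4 tested, and KRT7 the only epithelial marker called of 5 tested, both higher (edgeR). The fibroblast markers DCN and PDGFRA and the epithelial marker CDH1 were below the main filter. Alternatives that tested them called DCN higher in 6 of 7, PDGFRA in 3 of 5 and CDH1 in 3 of 7. The LUM call was lost in 6 of 15 alternatives (limma-voom, and without iREC D, iREC F, iEC C, iEC D or iEC E; adjusted p up to 0.267), with a log2 fold change of 3.497 without iREC F against 5.80 with all samples. The KRT7 call was lost in 5 of 14 (limma-voom, and without iREC D, iEC C, iEC D or iEC E; adjusted p up to 0.252). All 10 mural, all 6 fibroblast and all 6 epithelial markers had their highest iREC value in sample F, against 33.3% of all tested genes, and 9 of 10 endothelial markers had their lowest iREC value there, against 33.7%. The endothelial markers summed to 6582 to 8665 CPM in iEC, to 4359 CPM in iREC F and to 7399 to 9787 CPM in the other iREC samples. The sum hides changes in both directions, as 6 of the 10 markers were called (edgeR), 3 higher and 3 lower in iREC. PECAM1, TEK and EMCN were called in all 15 alternatives. ESAM was called in 14 of them, CDH5 in 10, VWF in 5 and CLDN5 in 4. PECAM1 fell from a mean of 2233 to 754 CPM (log2 fold change -1.57, adjusted p 0.000632 by edgeR). TEK rose from 58.9 to 833 CPM (log2 fold change 3.82, adjusted p 0.00011 by edgeR). The part of these marker levels in the NOTCH2 and NOTCH3 values was not tested.

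**Figure D2:**
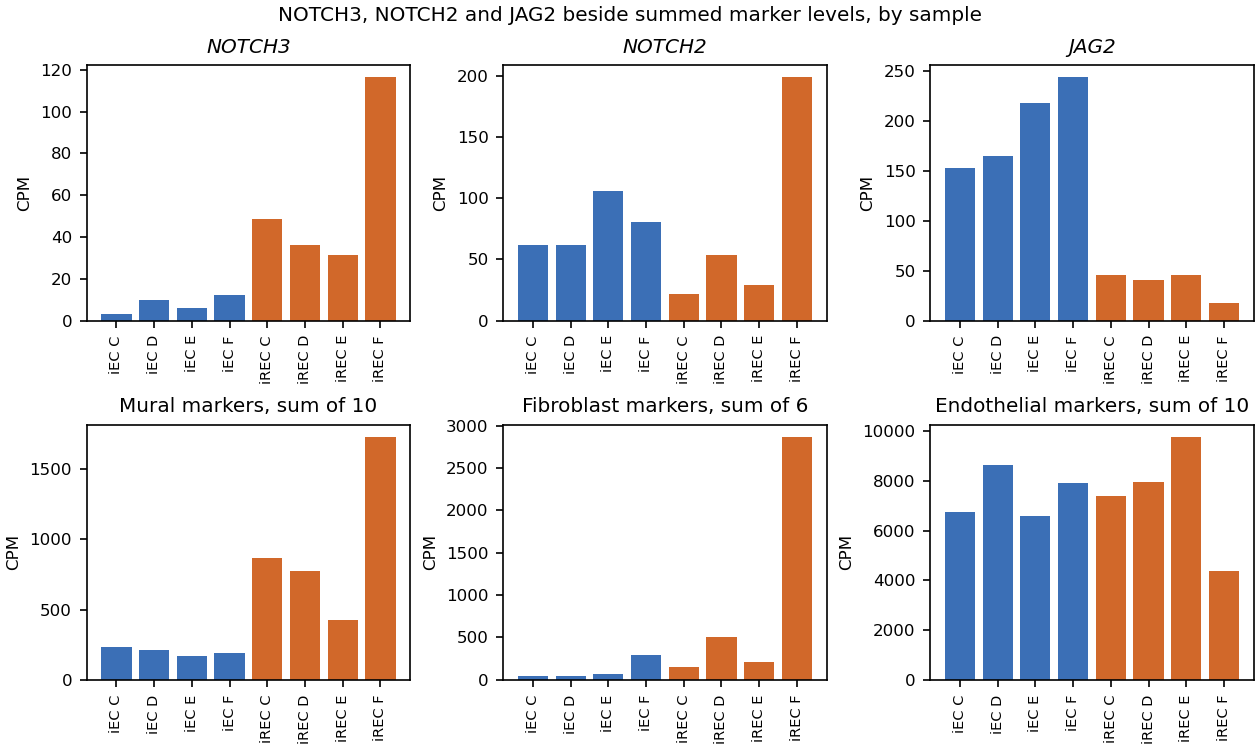
CPM per sample (linear axes from 0; blue iEC, orange iREC) of NOTCH3, NOTCH2 and JAG2 in the upper row and of the summed mural, fibroblast and endothelial markers in the lower row. In iREC F, NOTCH3 (116 CPM), NOTCH2 (199 CPM) and both the mural and fibroblast sums were the highest of the 8 samples, and JAG2 (17.6 CPM) and the endothelial sum were the lowest.

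JAG2 alone of the 4 ligands was called. JAG2 (ENSG00000184916, chromosome 14, 105140981 to 105168824), a Jagged-class ligand, stood at 153, 165, 218 and 244 CPM in iEC (C to F) and at 45.6, 40.4, 46.0 and 17.6 CPM in iREC. The highest iREC sample was well under the lowest iEC sample. The fall from 195 ± 43.3 to 37.4 ± 13.4 CPM (SD, n = 4) was 5.21-fold in the fit, a log2 fold change of -2.38 ± 0.30 (SE; adjusted p 0.00061 by edgeR). Without iREC F, where endothelial markers were also lowest, it was -2.15.

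DLL4 (ENSG00000128917, chromosome 15, 40929333 to 40939073), the ligand of endothelial tip and arterial cells, was at 211, 450, 103 and 176 CPM in iEC (C to F) and at 202, 173, 206 and 162 CPM in iREC. The iREC samples were close to each other and lay inside the wide iEC range. The log2 fold change was -0.34 ± 0.37 (SE; adjusted p 0.55 by edgeR), with a 95% interval from -1.18 to 0.51, and it was 0.18 without iEC D.

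JAG1 (ENSG00000101384, chromosome 20, 10637684 to 10673999) held nearly the same level in all iEC samples, 467, 474, 476 and 457 CPM in C, D, E and F. In iREC it was at 669, 365, 436 and 380 CPM, so that iREC C alone exceeded the iEC samples and the other 3 were below them. The log2 fold change was -0.019 ± 0.19 (SE; adjusted p 0.955 by edgeR), with a 95% interval from -0.45 to 0.41. Without iREC C it was -0.25 (edgeR adjusted p 0.181).

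DLL1 (ENSG00000198719, chromosome 6, 170282206 to 170306565), a Delta-class ligand used in many embryonic tissues, was near the limit of measurement, with 14 to 45 counts per iEC sample and 9 to 24 counts per iREC sample. Its 45 counts in iEC D set that sample apart. FAM120B overlaps DLL1 on the opposite strand at 42.3 CPM in iEC and 46.5 CPM in iREC, far above the 1.19 CPM of DLL1, so the source of these reads is uncertain. A difference was not detectable at this depth (log2 fold change -0.54 ± 0.51, SE; adjusted p 0.476 by edgeR).

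Between genes, levels can be compared only per length, here as the deposited FPKM, fragments scaled by gene length and by library size. In iEC the order by mean FPKM was JAG1 (50.01 ± 0.607), DLL4 (48.9 ± 30.7), JAG2 (30.4 ± 7.36), HEY1 (28.3 ± 19.1), NOTCH1 (23.8 ± 6.03), NOTCH4 (19.3 ± 4.17), NOTCH2 (4.59 ± 1.24), HEY2 (1.91 ± 1.09), NOTCH3 (0.828 ± 0.435) and DLL1 (0.433 ± 0.289; SD, n = 4). From JAG1 down to NOTCH4 each gene's samples overlapped those of the next in the order, as did those of HEY2 with NOTCH3 and NOTCH3 with DLL1. NOTCH2 stood clear of its neighbours on both sides.

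In iREC the order by mean FPKM was JAG1 (48.9 ± 14.9), DLL4 (38.4 ± 4.27), HEY1 (36.8 ± 13.3), NOTCH1 (28.1 ± 3.40), HEY2 (16.3 ± 4.52), NOTCH4 (6.51 ± 1.88), NOTCH3 (6.10 ± 4.20), JAG2 (5.74 ± 2.04), NOTCH2 (4.47 ± 4.92) and DLL1 (0.296 ± 0.132). Neighbours from JAG1 to NOTCH1 overlapped, as did those from NOTCH4 to NOTCH2. HEY2 stood clear of both neighbours, and DLL1 was clear of NOTCH2.

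Within the receptor pool NOTCH3 held a larger and NOTCH4 a smaller share in iREC than in iEC. Per length, NOTCH4 held 36.1% to 41.7% of the summed receptor FPKM in iEC and 6.72% to 18.0% in iREC. NOTCH3 held 0.761% to 2.998% in iEC and 7.10% to 21.9% in iREC. NOTCH1 held 43.2% to 51.9% in iEC and 65.7%, 64.5%, 71.6% and 50.5% in iREC (C to F). The NOTCH1 shares thus overlapped through iREC F, while those of NOTCH3 and NOTCH4 did not overlap. The summed receptor FPKM was 48.6 ± 9.28 in iEC and 45.2 ± 7.96 in iREC (SD, n = 4), closer than the spread within either group.

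In the ligand pool JAG2 held 15.0% to 31.8% of the summed ligand FPKM in iEC and 3.52% to 7.68% in iREC. DLL4 held 20.2% to 54.9% in iEC, the widest range of any ligand, and 34.9% to 44.4% in iREC. JAG1 held 29.6% to 47.71% in iEC and 47.7% to 59.1% in iREC, so that the ranges met. The ligand sum was 130 ± 27.7 FPKM in iEC and 93.3 ± 19.2 FPKM in iREC, and the ranges overlapped. These shares are given as a description, with no test.

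**Figure D3:**
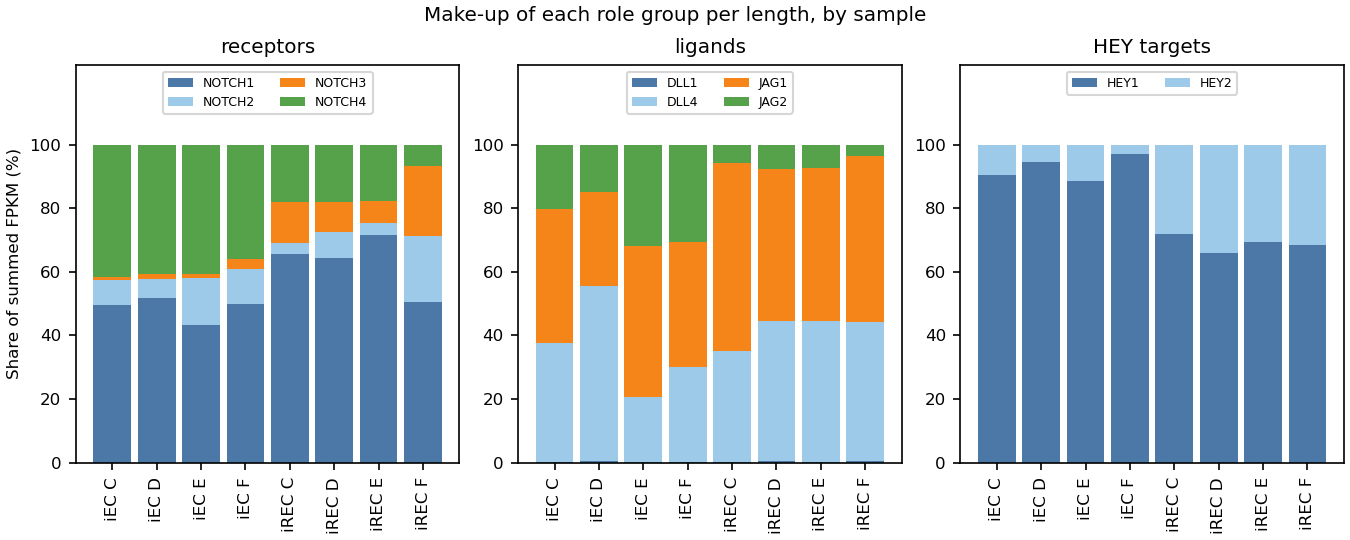
Share (%) of the summed deposited FPKM of the 4 receptors, the 4 ligands and the 2 HEY genes that each gene held, 1 bar per sample. NOTCH4 and JAG2 (green) held a smaller share in every iREC sample, and HEY2 held 28.1% to 34.0% in iREC against 2.90% to 11.5% in iEC.

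Of the target genes, HEY2 rose and HEY1 did not pass the test. HEY2 (ENSG00000135547, chromosome 6, 125747664 to 125761269) stood at 6.50, 9.04, 3.67 and 2.08 CPM in iEC (C to F) and at 58.8, 47.0, 47.7 and 28.0 CPM in iREC. Each iREC sample was above every iEC sample, with iREC F the lowest of its group. The means of 5.32 ± 3.08 and 45.4 ± 12.8 CPM (SD, n = 4) gave a log2 fold change of 3.09 ± 0.43 (SE; adjusted p 0.000976 by edgeR), or 8.50-fold. The antisense gene AL365259.1, which overlaps HEY2, was at 0.347 CPM in iEC and 2.47 CPM in iREC, far under HEY2.

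HEY1 (ENSG00000164683) was at 72.4, 182, 33.4 and 81.8 CPM in iEC (C to F) and at 178, 108, 128 and 72.2 CPM in iREC. The groups overlapped, with iEC D above all iREC samples and iREC F below 3 of the iEC samples. The log2 fold change was 0.39 ± 0.46 (SE; adjusted p 0.571 by edgeR), with a 95% interval from -0.64 to 1.43. Without iEC D it was 0.94 (edgeR adjusted p 0.102). Per length, HEY2 held 7.37% ± 3.87 of the summed FPKM of the pair in iEC and 31.0% ± 2.44 in iREC (SD, n = 4), with no overlap between the groups.

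Promoter sequences show where RBPJ, the DNA-binding partner of cleaved Notch, could be looked for. RefSeq windows of 300 bases around the gene start (GRCh38.p14) were matched for 8 of the 10 members (all but DLL1 and HEY1), and were searched on both strands for the RBPJ letters GTGGGAA (reverse complement TTCCCAC) and for the E-box CACGTG, a hexamer that HEY proteins can bind. Of the 8 members, HEY2 alone held the RBPJ letters, against 6.25% of 35116 windows, and none (0) held the E-box, against 7.26%. The motifs can overlap in the letters GTG (or CAC), which no member showed. HEY2 held the RBPJ letters at 213 bases before its start and again from 4 bases before the start across it. Its 250 bases upstream (chr6:125749382-125749631, + strand, RBPJ letters that lie fully upstream in capitals) are shown because it is the target that rose. The RefSeq start used lies 1968 bases after the start of the gene in the table.
HEY2: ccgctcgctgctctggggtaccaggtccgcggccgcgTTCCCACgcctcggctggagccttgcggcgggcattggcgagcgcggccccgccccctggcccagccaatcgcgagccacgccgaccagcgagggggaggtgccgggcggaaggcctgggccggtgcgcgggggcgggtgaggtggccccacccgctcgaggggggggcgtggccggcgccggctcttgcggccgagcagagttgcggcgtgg

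Among 9 HES and HEY family genes and NRARP with a window, 5 held the RBPJ letters: HES1, HES4, HES5, HEY2 and HEYL. The 57 bases around the letters (capitals) are given for the 3 of these that were tested besides HEY2, to set beside their values: HES4 and HEYL rose and HES1 did not pass the test. HES1 lies at chr3:194136038-194136094 (+ strand), HES4 at chr1:1000143-1000199 (- strand) and HEYL at chr1:39639790-39639846 (- strand). The letters lie 85 bases before the RefSeq start in HES1, 77 in HES4 and 178 in HEYL, where they are on the opposite strand. By the deposited gene limits, the HEYL bases shown lie inside the gene (39624153 to 39639945). The deposited HES4 start, 1000172, falls within the bases shown for that gene.
HES1: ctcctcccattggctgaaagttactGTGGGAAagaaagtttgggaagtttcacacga
HES4: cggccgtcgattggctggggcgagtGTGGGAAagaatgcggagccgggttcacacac
HEYL: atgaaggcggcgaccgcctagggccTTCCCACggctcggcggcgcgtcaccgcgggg

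A match of letters is a description of the sequence and says nothing of binding in these cells.

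The other HES and HEY genes moved in both directions. HES4, a HES-family repressor, was at 6.89, 16.4, 6.22 and 23.2 CPM in iEC (C to F) and at 54.2, 47.2, 35.4 and 66.6 CPM in iREC, a log2 fold change of 1.95 ± 0.42 (SE; adjusted p 0.00907 by edgeR). HEYL, the family member best known from vascular smooth muscle, was low, with 0 to 4 counts per iEC sample and 17 to 40 counts per iREC sample (log2 fold change 3.48 ± 0.69, SE; adjusted p 0.00599 by edgeR), so its fold rests on few reads. HES2 fell from 19.8 ± 9.67 to 2.53 ± 0.628 CPM (SD, n = 4), which edgeR fitted as a log2 fold change of -2.96 with an adjusted p of 0.000777.

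HES1, a widely used Notch target, had the same order of letters in both groups. It was at 8.13, 16.3, 11.1 and 36.1 CPM in iEC (C to F) and at 7.39, 18.1, 11.6 and 35.4 CPM in iREC. Sample F was the highest and C the lowest in each group (log2 fold change 0.018 ± 0.56, SE; adjusted p 0.985 by edgeR). NRARP, a feedback inhibitor that is itself a Notch target, was at 21.7, 41.0, 5.80 and 16.0 CPM in iEC (C to F) and at 31.3, 40.2, 45.7 and 34.5 CPM in iREC. It was not called with all samples (log2 fold change 0.85, edgeR adjusted p 0.216) and was called without iEC D (1.39, edgeR adjusted p 0.0357).

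Across the rest of the pathway, 12 of 44 tested genes were called, 6 higher and 6 lower, which is 27.3% against the 25.0% of all tested genes. The median log2 fold change was -0.011. Setting DLK1 at its bound left that gene far above the median, so the median could not move. A further 4 listed genes (NEURL1, DTX1, HES5 and HES7) were below the filter. The glycosylation, cleavage and nuclear genes had 1 called member each, of 5, 9 and 8 tested.

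Of the ligand-like genes, DLK1, which encodes a Delta-like protein without the Notch-activating domain, had at most 3 counts in any iEC sample. Its iREC mean, 192 CPM, was at least 895-fold higher (floor of 3 counts per library), which does not hold for each iREC sample. EGFL7, a secreted endothelial protein that can bind Notch, fell from 730 ± 58.4 to 313 ± 117 CPM (SD, n = 4; adjusted p 0.00989 by edgeR). The inhibitory ligand DLL3 was at or under 1.57 CPM in every sample (edgeR adjusted p 0.77). DLK1 was lowest in iREC C, at 16.2 CPM against 224 to 280 CPM in the other iREC samples.

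Of the enzymes that act on the receptor, LFNG (Lunatic Fringe) was at 34.1, 37.7, 14.4 and 13.2 CPM in iEC (C to F) and at 2.03, 9.49, 6.41 and 6.03 CPM in iREC, a log2 fold change of -2.05 ± 0.50 (SE; adjusted p 0.0156 by edgeR). The groups did not overlap. The other Fringe genes, MFNG and RFNG, were not called. APH1B, a gamma-secretase subunit, rose from 28.6 ± 4.29 to 49.2 ± 5.99 CPM (SD, n = 4; adjusted p 0.00508 by edgeR), while the protease genes ADAM10 and ADAM17 and NCSTN, which encodes another gamma-secretase subunit, were not called. MIB1, the ubiquitin ligase that activates ligands, rose from 62.0 ± 5.58 to 86.6 ± 9.64 CPM (edgeR adjusted p 0.0179); that call was lost without iEC E and with the replicate letter as a block, at an adjusted p of up to 0.0518.

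Genes that turn the receptor over moved both ways. NUMB, an endocytic inhibitor of Notch, fell from 138 ± 21.7 to 87.3 ± 6.89 CPM, and the ubiquitin ligase gene NEDD4 fell from 113 ± 15.8 to 68.6 ± 10.4 CPM (SD, n = 4), with edgeR adjusted p of 0.00722 and 0.00792. DTX3, of the Deltex family, rose from 1.53 ± 0.645 to 6.71 ± 3.38 CPM (edgeR adjusted p 0.00907). In the nucleus, RBPJ was at 60.7 ± 5.75 and 71.4 ± 6.37 CPM and was not called (log2 fold change 0.23 ± 0.12, SE; adjusted p 0.184 by edgeR). The coactivator gene MAML3 fell from 51.6 ± 11.7 to 26.2 ± 7.28 CPM (edgeR adjusted p 0.0146), with MGST2 overlapping it on the opposite strand at 41.5 and 16.7 CPM, so its counts are uncertain.

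**Figure D4:**
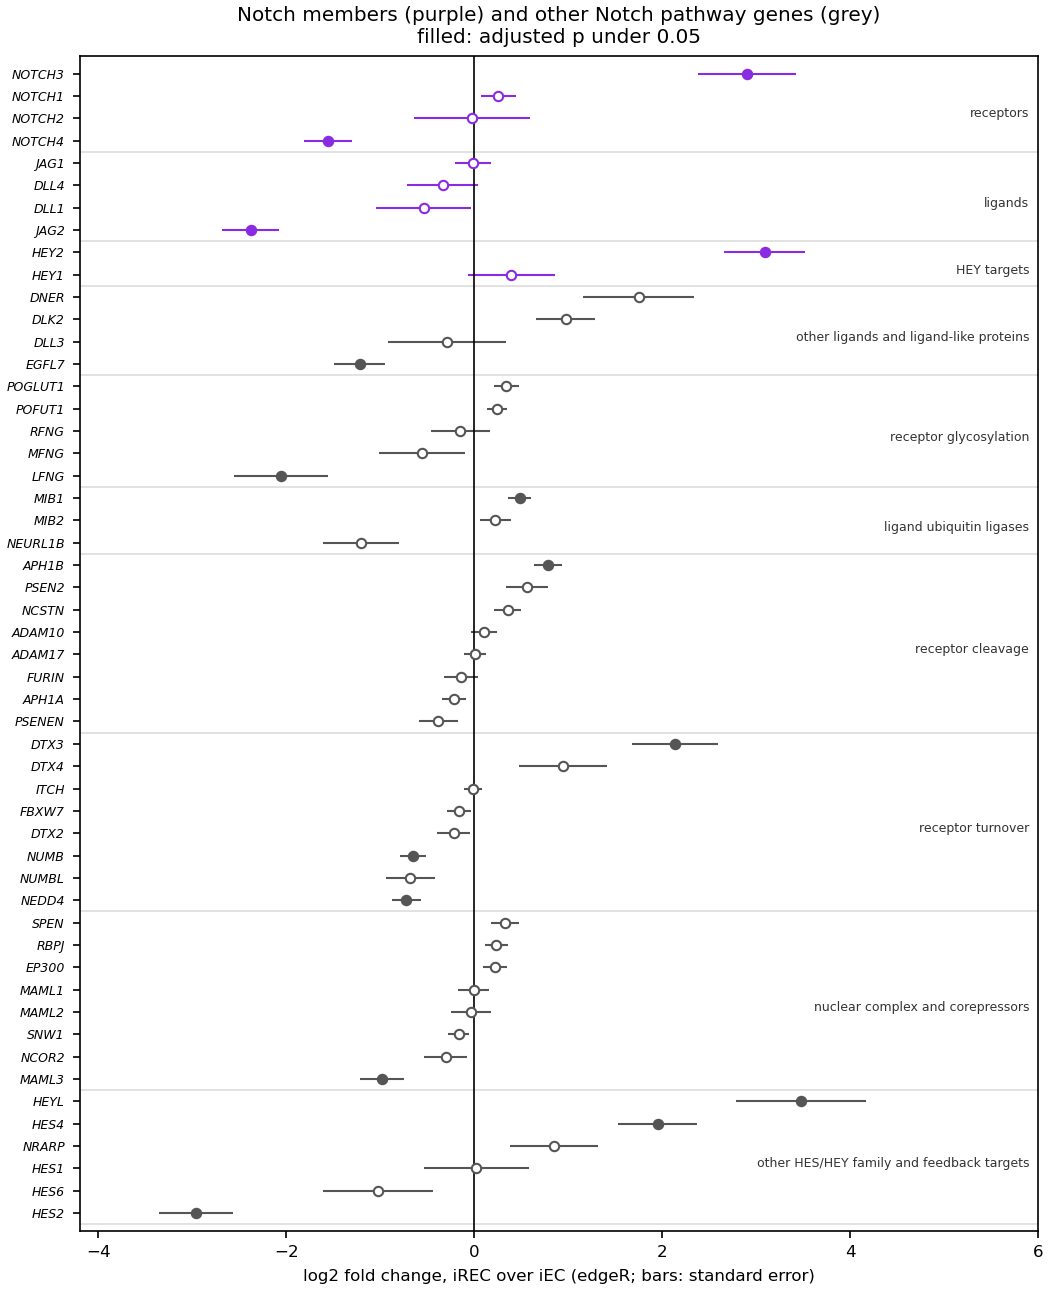
Log2 fold change of iREC over iEC (x axis, bars are standard errors from edgeR) for the 10 members in purple and 42 other tested pathway genes in grey, by role; filled points have an adjusted p under 0.05. DLK1 is left out because its iEC level was at the floor, and 1 further tested gene is not shown. HEYL (3.48) lies farthest to the right and HES2 (-2.96) farthest to the left.

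Within iEC, DLL4, HEY1 and most arterial genes had the same highest and the same lowest sample. Sample D was the highest and E the lowest for NOTCH1, DLL4, DLL1 and HEY1 among the members, and also for NRARP, EFNB2, GJA4, GJA5, CXCR4, NRP1 and UNC5B, which are 6 of the 7 arterial genes listed (all but SOX17) besides NRARP. That combination held for 8.86% of all tested genes. In iEC D over iEC E, DLL4 was 4.36-fold higher, HEY1 5.44-fold, NRARP 7.06-fold and EFNB2 6.50-fold, while JAG1 stood at 0.997 of its level in E. NR2F2, a regulator of venous identity, had the opposite order at both ends, at 71.2 CPM in D and 229 CPM in E. Of the other venous genes listed, NRP2 was also lowest in D but highest in F, and EPHB4 was lowest in E, as the arterial genes were, and highest in F.

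The arterial genes that share this iEC order were compared between the groups as well. EFNB2, the arterial ephrin, was at 123, 332, 51.0 and 118 CPM in iEC (C to F) and at 576, 534, 602 and 407 CPM in iREC (log2 fold change 1.77 ± 0.48, SE; adjusted p 0.0247 by edgeR). GJA4, an arterial connexin, was at 18.5, 82.9, 3.61 and 20.5 CPM in iEC and at 166, 247, 217 and 262 CPM in iREC (log2 fold change 2.83 ± 0.74, SE; adjusted p 0.0215 by edgeR). The groups did not overlap for either gene. The EFNB2 call was lost in 4 and the GJA4 call in 3 of the 8 fits that left out a sample, with edgeR adjusted p of up to 0.0662 and 0.0601. Without iEC D, the highest iEC sample for both, the log2 fold change was 2.44 for EFNB2 and 3.97 for GJA4, and both were called. Whether counting used the strand is not given in the sources used here, so low GJA4 counts are uncertain.

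Of the 7 arterial genes 4 were called: EFNB2, GJA4 and GJA5 higher, and the chemokine receptor gene CXCR4 lower (log2 fold change -2.02 ± 0.39, SE; adjusted p 0.00503 by edgeR). GJA5, a connexin of large arteries, rose from 0.13, 16.1, 0.118 and 1.29 CPM in iEC (C to F) to between 413 and 649 CPM in iREC (log2 fold change 6.97, and 10.12 without iEC D). Of 3 venous genes, NR2F2 fell from 158 ± 71.8 to 64.0 ± 25.0 CPM (edgeR adjusted p 0.0392, lost in 6 of the 8 fits that left out a sample, with values of up to 0.11), and NRP2 rose from 423 ± 114 to 1196 ± 371 CPM (edgeR adjusted p 0.0039). EPHB4 was not called. Among the 4 iREC samples, EFNB2 spanned 407 to 602 CPM and DLL4 162 to 206 CPM, a narrower spread than in iEC.

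**Figure D5:**
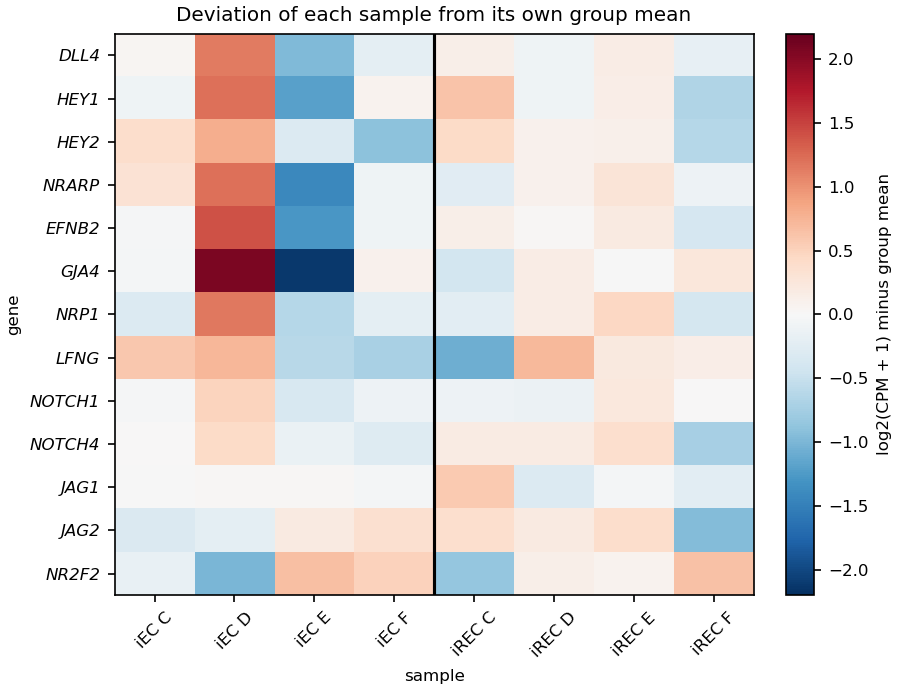
Deviation of log2(CPM + 1) of each sample from the mean of its own group (colour), for 13 genes chosen after their values were seen; the black line parts iEC from iREC. In iEC, sample D is red and E blue for DLL4, HEY1, NRARP, EFNB2, GJA4 and NRP1, the reverse holds for NR2F2, and JAG1 is near 0 in all iEC samples.

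The genes whose pattern over the 8 samples lay closest to each called member were found among 9779 tested genes whose mean was 10 CPM or more, by the root mean square difference of log2 CPM after centring each gene on its own mean. NOTCH4 was matched most closely, by RAB38 (0.17 log2 units) and by ADGRL4, an endothelial adhesion G protein-coupled receptor (0.19). JAG2 was closest to DYSF (0.28) and FERMT3 (0.29), and HEY2 to RUNX1T1 (0.30) and PRUNE2 (0.32). NOTCH3 was closest to CCDC85A (0.35) and to the receptor kinase gene ROR1 (0.38), which had its highest value, 60.8 CPM, in iREC F as NOTCH3 did.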

How the data were processed

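Poly-A-selected RNA libraries of 4 iEC and 4 iREC samples were analysed. The submitters' processing notes name fastp, HISAT2 2.0.5 and hg38. The counting program and its use of strand are not given in the sources used here, although the labels' protocols describe a dUTP second strand. Per the file headers, the deposited table holds raw counts per gene, which were whole numbers. The deposited normalized signal equals counts divided by 1 size factor per sample. The deposited FPKM equal this signal per length and a common library size of 15383181. Log2 fold changes and p-values in the deposited table are the authors' own, with no test named in the headers. All 30386 gene starts and ends matched GENCODE release 29 (GRCh38).

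From the counts, filterByExpr kept 15330 genes, and edgeR 4.0.16 (TMM, quasi-likelihood F-test, group as the only term) compared the groups, with Benjamini-Hochberg adjustment over all of them. Standard errors and 95% intervals come from the coefficient, the F statistic and its degrees of freedom. On simulated counts (15008 genes), 31.9% of genes changed 2-fold and 78.4% of those changed 4-fold were recovered, and 4.51% of calls were false. Alternatives were DESeq2 size factors, no filter, library size only, filtering at 1 CPM throughout a group with a mean count of 50 or more (the stricter filter), DESeq2 1.42.0, limma-voom 3.58.1, the replicate letter as a block, and each sample left out. Deviations of same-letter samples correlated across genes at 0.17, -0.079, 0.029 and 0.25 (C to F), against -0.22 to 0.18 for different letters. These values do not settle whether letters pair samples, so the block is an alternative. The intervals include the spread between samples, while the floor of 3 counts covers counting error only. For RGS5, listed under 2 identifiers, the row with more counts was used.

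Named were all members, called genes of the pathway, arterial and venous lists, HES1, HEYL, NRARP, RBPJ, DLL3, EFNB2 and NR2F2, and the 2 closest patterns per called member. Other genes named were chosen after their values were seen. The members and lists were chosen with earlier results of these data known.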

Additional observations from a re-analysis of the deposited data

Results flagged for a closer look

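Dixon's test at the 95% level was applied to the log2 CPM of the 10 members within each group of 4 samples. It picked out 2 of the 20 sets of values, and by chance about 1 in 20 would be. DLL1 in iEC D was at 1.57 log2 CPM (2.84 CPM, 45 counts), far above the other iEC samples at -0.061 to 0.18. JAG2 in iREC F was at 4.15 log2 CPM (17.6 CPM), far below the other iREC samples at 5.34 to 5.53.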

How the results depend on the processing

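The 4 calls among the members (NOTCH3, NOTCH4, JAG2 and HEY2) held under all 15 alternatives. The count of called members was 4 in each of them except without iREC F, where NOTCH2 was called as well and the count was 5. With the replicate letter as a block 4 members, 11 other pathway genes and 3334 genes in all were called, and the block changed no member's call. The count of other pathway genes ran from 12 to 15 in the fits that left out a sample, and 11 of the 12 calls held under every alternative that tested the gene; the exception was MIB1. The count over all genes ran from 2660 without iREC D to 4214 without iREC F, and was 4954 by DESeq2. Signs changed only for members that were not called: over the fits that left out a sample, the log2 fold change ran from -1.15 to 0.28 for NOTCH2 (0.28, 0.11 and 0.24 without iREC C, D and E, and 0.15 without iEC E), from -0.87 to 0.047 for DLL1, from -0.58 to 0.18 for DLL4 and from -0.25 to 0.081 for JAG1 (0.081, 0.0105 and 0.063 without iREC D, E and F). The stricter filter left JAG1 at 0.0050 and removed DLL1. The cause of these changes was not tested. Under other scalings the median log2 fold change of all genes was 0.020 and 0.025. Genes with few counts, DLL1 and HEYL among those named, are limited by depth.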
